A study of Rattus norvegicus with 10 samples.

Results

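The transcriptome described here is that of the normal rat fetal kidney close to birth. Its members are the 5 arrays that the labels give as kidneys of fetuses of normal mothers, out of 10 arrays in the series, and they were taken alone. Per the labels, the mothers were housed 4 to a cage on a regular diet and killed on day 22 of gestation, and the fetal kidneys were frozen before total RNA was extracted. The labels of these samples name no strain, mother, litter, sex or batch, so the spread between the 5 arrays may be technical in part, and whether any samples were littermates is not given. The series text speaks of 5 kidneys a group and does not say whether any were pooled. The other 5 arrays came from fetuses of mothers given insulin and are not used here. Each array gave a linear MAS5 signal, the summary value that Affymetrix software makes from the probes of a probe set. Of 15923 probe sets, the 12783 with exactly 1 gene symbol were ranked by mean signal over the 5 arrays, and they stood for 10411 genes.

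The nephron forms from progenitor cells of the cap mesenchyme, which gather around the tips of the branching ureteric bud, turn into epithelium and pass through vesicle and S-shaped stages. The S-shaped body gives rise to podocytes, which wrap the glomerular capillaries, and to the proximal tubule, the loop of Henle and the distal tubule. The ureteric bud gives rise to the collecting ducts, with principal cells that reabsorb water and sodium and intercalated cells that handle acid and base. In the rat new nephrons still form around birth, so progenitors and maturing segments lie side by side in 1 organ, embedded in stroma and vessels.

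A gene is given below by its brightest probe set, with its mean signal ± SD (n = 5 arrays) and its percentile among the 12783 probe sets. Probe sets differ in how well they bind their targets, so a percentile ranks probe sets and not transcripts, and signals of different genes are not set against each other as amounts of RNA. In whole kidney, few cells of a type and little RNA per cell cannot be told apart. As a level below which a signal says little, 54 genes of organs outside the kidney (pancreas, retina, pituitary, testis and others) were used. Their median signal was 24.2, at percentile 14.9, and the 90th percentile of their signals was 53.6, which lay at percentile 27.5 of all probe sets. Of all genes, 77% lay above this off-tissue level and 28.6% in the brightest 25% of probe sets. Counts for gene lists at those levels are read against these shares. The share of all genes in the brightest 10% was not computed, so list counts there have no share to be read against. For the brightest 1%, the number of all genes is given below. Members and lists were chosen with earlier results of these data known, so the counts are descriptions and no test is given.

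The trimmed mean was 250 on every array, so the deposited values had already been brought to a common level, and likeness in level is not a finding. Median signals over the named probe sets ran from 154.5 to 159.7, and the 3' to 5' signal ratio of the Gapdh control probe sets, which rises where RNA is degraded, ran from 1.02 to 1.14. Pearson's r between pairs of arrays, over probe sets on the log2(signal + 16) scale, ran from 0.986 to 0.990. Replicate 1 was the highest array for 6 of 10 genes of the adrenal list, and replicate 4 for 19 of 22 genes of the liver list. The results on those 2 lists are therefore given with and without these arrays.

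The brightest probe sets belonged to the machinery of translation and respiration and to haemoglobin. Eef1a1, the elongation factor that brings tRNA to the ribosome, ranked first with a signal of 5385 ± 595, and the beta globin gene Hbb followed with 5254 ± 515. Ribosomal protein genes came next, with Rps23 at 4861 ± 271, Rpl3 at 4835 ± 285, Rps29 at 4666 ± 231 and Rps6 at 4627 ± 305. Atp5f1b, the beta subunit of ATP synthase, reached 4773 ± 284, and the mitochondrially encoded cytochrome oxidase genes COX2 and COX1 reached 4638 ± 307 and 4438 ± 699.5. Of these, COX1 varied most between arrays, with signals of 4725, 3675, 4938, 3705 and 5149, replicates 2 and 4 being the lowest. Outside translation and respiration, the 25 brightest genes held 6 others. They were Tmsb4x, an actin-binding peptide gene, at 3981 ± 210.3, Actg1, cytoplasmic gamma actin, at 3862 ± 358, Gnas, the imprinted stimulatory G protein subunit, at 3832 ± 219 and Mt2A, a metallothionein, at 3736 ± 253, besides Hbb and Atp1b1, the beta subunit of the sodium pump, at 3938 ± 236. The other genes among the 25 were Rpl7a, Rpl27a, Rps16, Rpl6, Rpl23, Rps3a, Rpl26, Rpsa, Rpl7, Rps24 and Eef1g, another elongation factor subunit.

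The brightest 1%, 128 probe sets of 124 genes, held 10.4% of the summed signal, and the brightest 10% held 45%. Among the 124 genes were 34 ribosomal protein genes, 12 of oxidative phosphorylation, 7 of the proximal tubule and 3 of the stroma list. Of transport proteins named as solute carriers it held 5, the mitochondrial carriers Slc25a3, Slc25a4 and Slc25a5 and the proximal tubule carriers Slc34a1 and Slc3a1. A further 75 probe sets with no symbol or several lay above the signal that bounds this 1%, and they are not named here.

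Gene lists of kidney compartments spanned a wide range of ranks. The basement membrane list had the highest median percentile of the kidney lists at 93.2, followed by stroma at 91, the proximal tubule at 83.9 and podocytes at 77.5. Distal tubule genes had a median of 72.1, the ureteric list 71.2, the endothelium 65.2, the loop of Henle 62, smooth muscle and mesangium 60.2, and principal cells 54.4. Nephron progenitors at 43.7, intercalated cells at 43.1, and the early nephron at 34 ranked lowest among the lists of kidney compartments. The proximal tubule list ranked above the progenitor and early nephron lists. These are ranks of probe sets of different genes, so they do not compare the stages themselves. Genes that mark other organs, such as adipose tissue at 21.7 and skeletal muscle at 15.3, lay near the off-tissue genes.

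**Figure D1:**
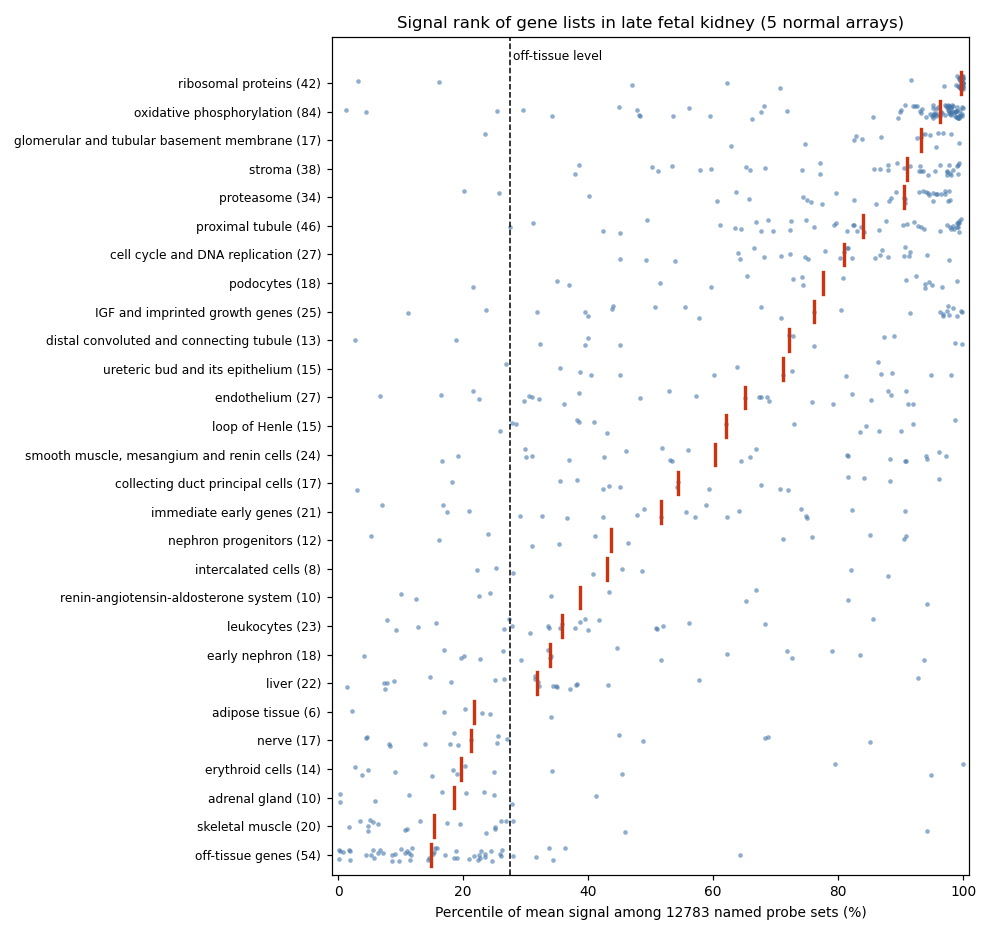
Each point is 1 gene, placed by the percentile of its mean signal over the 5 normal arrays (horizontal axis, percent), in 28 gene lists ordered by their median (red bar, with the number of members in parentheses). The dashed line is the off-tissue level at percentile 27.5, and the proximal tubule, stroma and basement membrane lists lie almost wholly to its right, while skeletal muscle and off-tissue genes lie mostly to its left.

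Nephron progenitor genes were uneven in level, and the shares of the list were close to those of all genes. Of 12 members, 9 lay above the off-tissue level and 4 in the brightest 25%, shares of 75% and 33.3% against 77% and 28.6% of all genes. Wt1, the zinc finger factor that progenitors need and podocytes keep, gave signals of 785, 809, 829, 722 and 724 on replicates 1 to 5, at percentile 90.8. Crym, a thyroid hormone binding protein, gave 675, 830.3, 754, 711 and 799.7, at percentile 90.5. Both were in the brightest 10% on average, and no array stood apart for either. The Hox factors that pattern the metanephros followed, with Hoxa10 at 558 ± 31.8 and Hoxa11 at 378 ± 27.5, and the homeobox gene Uncx reached 324 ± 30.8. Tmem100, a membrane protein gene, at 137 ± 32.6, Robo2, a guidance receptor that limits where the ureteric bud grows out, at 109 ± 5.88, and Fgf9, a growth factor that keeps progenitors undifferentiated, at 82.2 ± 7.88, lay in the middle and lower ranks. Itga8, an integrin of the mesenchyme, stood at 65.2 ± 9.74. Below the off-tissue level lay Ncam1, a cell adhesion molecule, at 43.9 ± 7.81, Gdnf, the ligand that draws out the ureteric bud, at 27 ± 7.64, and Fgf20 at 6.6 ± 5.83. Gdnf gave 30.7, 15.8, 25, 27 and 36.5, so that no array brought it above 53.6. Six2, Cited1 and Pax2, which define this compartment, have no probe set with 1 symbol among those used and were not analysed here.

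Early nephron genes formed the kidney list with the lowest median. Of 18 members, 12 lay above the off-tissue level (66.7%) and 3 in the brightest 25% (16.7%), both below the shares of all genes. Ccnd1, the cyclin that starts the cell cycle, was the exception at 976 ± 84.3, percentile 93.8. It is expressed in many dividing cells. Pou3f3, a factor of the future loop and distal tubule, stood at 518 ± 62.8, Hes1, a Notch target, at 426 ± 42, Emx2 at 338 ± 25.3 and Pax8, a paired box factor of nephron epithelium, at 330.4 ± 20. Jag1, a Notch ligand, gave 293, 268, 248, 173 and 239, and its values spanned a 1.64-fold range with 16 added to each, as in all ratios of highest to lowest array below. Lhx1, a LIM factor needed for the first epithelial vesicles, gave 169.8, 169, 189.8, 183 and 129.8, with the lowest value on replicate 5. Bmp2 stood at 127 ± 16.3, Sox4 at 77.9 ± 8.63, the Notch effector Hes5 at 76.8 ± 28.7, the kidney cadherin Cdh6 at 76.1 ± 15.7 and Lfng, which modifies Notch receptors, at 59.7 ± 5.88.

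The other 6 members had means below the off-tissue level. Wnt4, which induces progenitors to become epithelium, gave 34.9, 23.3, 43.4, 28.3 and 40.1, at percentile 19.7. Fgf8, which the new vesicles make, stood at 28.3 ± 6.55, the Wnt effector Lef1 at 35.1 ± 7.0, Notch2 at 40.8 ± 8.04 and the Iroquois factor Irx1 at 5.1 ± 1.5. Dll1, a Notch ligand, gave 6.4, 61.1, 53.7, 62.3 and 69.3. Replicate 1 was far below the other 4 arrays for Dll1, which were close together, and the mean of 50.6 ± 25.3 therefore describes no array well.

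Genes of the ureteric bud and its epithelium ranked higher, with 14 of 15 members above the off-tissue level (93.3%) and 6 in the brightest 25% (40%). Most of the bright ones are epithelial genes that other tubules also express. Epcam, an epithelial adhesion molecule, gave 1903, 1817, 1910.4, 1834 and 1683, at percentile 98.1, and Cdh16, the kidney-specific cadherin, gave 871, 1044, 1064, 1142 and 1323. Cdh1, E-cadherin, stood at 673 ± 47.8, and the keratins of simple epithelia stood at 609 ± 46.8 for Krt8, 593 ± 62.1 for Krt7, 324 ± 41.8 for Krt18 and 227 ± 42.3 for Krt19. Genes of bud outgrowth and branching lay at several levels. Ret, the receptor tyrosine kinase for Gdnf at the bud tips, gave 95.1, 111, 93, 103 and 83.9, at percentile 38.7, and its co-receptor gene Gfra1 stood at 257 ± 12.5. Spry1, which restrains Ret signalling, stood at 469.8 ± 36.8. L1cam at 130.1 ± 17.6, Hoxb7 at 106 ± 17.7 and Gata3, a factor of the nephric duct, at 83.3 ± 24.8 lay between percentiles 35.5 and 45.1, and Sox11 lay at 51.9 ± 14.3, just below the off-tissue level.

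The podocyte list ranked high, though most of its brightest members are genes that other cells also express. Of 18 members, 17 lay above the off-tissue level (94.4%), 9 in the brightest 25% (50%) and 8 in the brightest 10%. The slit diaphragm protein nephrin, encoded by Nphs1, gave 338, 345, 363, 339.8 and 316, at percentile 72.8. Podxl, the sialoprotein that keeps foot processes apart, gave 846, 893, 974, 816 and 814, at percentile 92.4, and Synpo, an actin-associated protein of foot processes, gave 335, 363, 373, 369 and 341. None of the arrays lay far from the others for any of the 3. Of genes that podocytes share with other cells, Cdkn1c, an imprinted cell cycle inhibitor, reached 2296 ± 90.4, the crosslinker alpha-actinin-4 (Actn4) 1352 ± 113, the endothelial growth factor gene Vegfa 1116 ± 77.1, the junction protein gene Tjp1 1053 ± 42.4 and dystroglycan (Dag1) 989.7 ± 27.8. The transcription factor Tcf21, which stroma also expresses, stood at 989 ± 112. In the upper middle ranks were Bmp7, a survival factor for progenitors, at 462 ± 46.5, dendrin (Ddn) at 358 ± 19.8, the phosphatase gene Ptpro at 272 ± 55.2, nestin (Nes) at 224 ± 22.5 and podoplanin (Pdpn) at 167 ± 9.58. Plce1, a phospholipase of glomerular development, at 89.7 ± 9.82, and Foxc2 at 81.3 ± 12 were dim. Clic5, a chloride channel family protein of foot processes, was the 1 member below the off-tissue level, at 38.2 ± 6.83.

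Basement membrane genes, which podocytes, endothelium and tubules all make, lay near the top of the ranks. Of 17 members, 16 lay above the off-tissue level (94.1%) and 14 in the brightest 25% (82.4%). Col4a1, a chain of the collagen IV network found in all basement membranes, gave 2666, 2677, 2722, 2701 and 2938, at percentile 99.3. Lamc1, the common laminin gamma chain, followed at 1844 ± 70.1, with Col18a1 at 1392 ± 97.6 and Col4a2 at 1243 ± 88.4. At the lower end were perlecan (Hspg2) at 362 ± 53.9, the laminin chain gene Lama2 at 250.3 ± 7.87 and Col4a4 at 42.7 ± 6.28. Col4a4 belongs to the collagen network of the mature glomerular basement membrane and gave 50.7, 35.2, 38.1, 43 and 46.7, below the off-tissue level on every array. Its partner Col4a5, chosen after its values were seen, gave 926 ± 78.6.

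Proximal tubule genes, which carry out most of the kidney's reabsorption of phosphate, glucose, amino acids and protein, were the brightest of the nephron segment lists. Of 46 members, 45 lay above the off-tissue level (97.8%), 31 in the brightest 25% (67.4%) and 7 in the brightest 1%. Pck1, the enzyme that commits carbon to glucose synthesis, gave 3385, 3473, 3363, 3315 and 3246, at percentile 99.7, and Ass1, of arginine synthesis, gave 2458, 2756, 2469.6, 3035 and 2874. Slc34a1, the sodium-phosphate cotransporter of the brush border, gave 2542, 2592, 2540.0, 2595 and 2733, at percentile 99.3. Its values spanned a 1.07-fold range over the 5 arrays. Hao2, a peroxisomal oxidase, stood at 2599.5 ± 152. The other 3 of the brightest 1% were Miox, which opens the ring of inositol, at 2574 ± 277, Fbp1, fructose bisphosphatase, at 2466 ± 171 and Slc3a1, the heavy chain of the cystine transporter, at 2386 ± 89.8.

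Further proximal tubule genes were chosen after their values were seen, as the usual markers of uptake and secretion. Megalin, the endocytic receptor encoded by Lrp2, gave 2159, 2342, 2285, 2257 and 2414, and its partner cubilin (Cubn) stood at 891 ± 41.9. The water channel Aqp1 stood at 747 ± 76.1, the glucose transporter Slc5a2 gave 354, 478, 458, 422 and 486, and the organic anion transporters Slc22a6 and Slc22a8 stood at 494 ± 50.1 and 474 ± 64.4. Hnf4a, a nuclear receptor of proximal tubule cells, stood at 154 ± 12.5. The lowest 3 of the list were Cyp27b1, which activates vitamin D, with 118, 174, 76.5, 126 and 86.3, the taurine and GABA carrier gene Slc6a13 with 54.8, 62.4, 71.2, 66.5 and 75.1, and the anion transporter gene Slc22a7 with 60.8, 45.7, 59, 49.7 and 51.4. Slc22a7 lay on both sides of the off-tissue level, above it on replicates 1 and 3 and below it on replicates 2, 4 and 5.

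Promoters of these genes were searched because 7 of the brightest genes belong to 1 segment. The windows run from 250 bases before to 50 after the gene start in RefSeq's GRCr8 annotation and were found for 8610 of the 10411 genes and for 44 of the 46 proximal tubule genes. The core site of HNF1, a homeodomain factor of liver and kidney epithelium, was searched as GTTAAT on both strands and occurred in 7 of the 44 windows (15.9%), against 4.84% of all 8610. Stretches of 4 of these 7 are shown because they hold the sequence in question, from 20 bases before the first match to 20 after the last, in the gene's 5′ to 3′ direction with the matches in capitals. Slc34a1 lies at chr17:9239078-9239150 on the minus strand, Slc22a8 at chr1:214927171-214927216 on the plus strand, Pck1 at chr3:182348360-182348405 on the plus strand and Anpep, an aminopeptidase of the brush border with a signal of 1588 ± 128, at chr1:143195174-143195219 on the minus strand.
Slc34a1: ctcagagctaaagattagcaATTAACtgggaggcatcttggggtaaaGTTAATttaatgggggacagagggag
Slc22a8: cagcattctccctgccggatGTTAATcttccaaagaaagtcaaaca
Pck1: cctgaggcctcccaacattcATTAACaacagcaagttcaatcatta
Anpep: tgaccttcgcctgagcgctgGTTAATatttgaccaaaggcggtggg
The matches begin 147 and 120 bases before the start in Slc34a1, 93 in Slc22a8, 192 in Pck1 and 98 in Anpep. The other 3 genes with a match were Slc6a18, Miox and Mep1b. The same letters occurred in 7 of 18 windows of the liver list (38.9%) and in 6 of 43 of the off-tissue genes (14.0%), so a match was not limited to genes with a high signal in kidney. A match is a description of letters and not a bound site.

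Loop of Henle genes were mixed, with 14 of 15 members above the off-tissue level (93.3%) and 6 in the brightest 25% (40%). The sodium-potassium-chloride cotransporter of the thick ascending limb, Slc12a1, gave 819, 688, 782, 681 and 695, at percentile 90. Umod, which encodes uromodulin, the main protein of normal urine, gave 534, 574, 503, 600.1 and 507, at percentile 84.4. Their ranges over the arrays were 1.2-fold and 1.19-fold. Fxyd2, the gamma subunit of the sodium pump, stood at 2123 ± 26.9, Akr1b1, the aldose reductase that makes sorbitol, at 838 ± 43.7, the claudins Cldn10 and Cldn19 at 601 ± 36.4 and 341 ± 44.1, and the potassium channel Kcnj1, which returns potassium to the lumen, at 242 ± 11. In the middle and lower ranks lay the prostaglandin receptor Ptger3 at 119.5 ± 24.8, the sodium-proton exchanger Slc9a2 at 109 ± 15.9, Cldn16, a paracellular magnesium pore protein, at 96.2 ± 15.9 and the urea transporter Slc14a2 at 94.5 ± 11.5. Egf, a product of the mature distal nephron, gave 54.3, 51.9, 56.6, 54.9 and 65.7, and Ppp1r1b gave 54.5 ± 15.6, both close to the off-tissue level. Casr, the calcium-sensing receptor, gave 51, 42.6, 53.4, 52.2 and 44.2. All 5 values of Casr lay below the off-tissue level.

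In the distal convoluted and connecting tubule, 11 of 13 members lay above the off-tissue level (84.6%) and 5 in the brightest 25% (38.5%). The brightest were Atp1b1 and Fxyd2, subunits of the sodium pump that every tubule uses. Slc12a3, the thiazide-sensitive cotransporter that defines the distal convoluted tubule, gave 356, 369.6, 374, 472 and 343, at percentile 76.1. Calb1, the calcium-binding calbindin, gave 542, 697, 651, 949 and 590.5. For both genes replicate 4 was highest, and for Slc12a3 it stood clear of the other 4. The kinase Wnk1 stood at 623 ± 44.5, its partner Stk39 at 334 ± 14.7 and the sodium-calcium exchanger Slc8a1 at 339.8 ± 26.3. Klk1, tissue kallikrein, varied from 87.3 to 186. The calcium channel Trpv5 stood at 104 ± 5.5, Klotho (Kl), the co-receptor for Fgf23, at 102 ± 10.4 and the calcium pump Atp2b4 at 70.2 ± 6.82. Below the off-tissue level were S100g, another calbindin, at 32.6 ± 7.89 and parvalbumin (Pvalb), an early distal convoluted tubule marker, at 3.72 ± 0.65.

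Principal cell genes were mixed in level. Of 17 members, 15 lay above the off-tissue level (88.2%) and 4 in the brightest 25% (23.5%). The shares of all genes were 77% and 28.6%. Aqp2, the water channel under vasopressin control, gave 1015, 1553, 1099.9, 1523 and 1303, at percentile 96.2. Replicates 2 and 4 were the highest and replicates 1 and 3 the lowest, a 1.52-fold range. Aqp3, the basolateral water channel, gave 703, 681, 689.6, 586 and 656, and Aqp4 stood at 289.6 ± 34.1. Avpr2, the vasopressin receptor, stood at 130.1 ± 28.3. The subunits of the epithelial sodium channel stood at 333 ± 13.7 for Scnn1b, 222 ± 14.4 for Scnn1g and 116 ± 10.1 for Scnn1a. Hsd11b2, which shields the mineralocorticoid receptor from glucocorticoid, reached 474 ± 43.5, and the receptor itself, Nr3c2, 121 ± 13.9. St6gal1, a sialyltransferase, at 535 ± 13.7, the pump regulator Fxyd4 at 319 ± 50.7, the epithelial factor Elf3 at 184 ± 13.9 and the prostaglandin synthase Ptges at 184 ± 10.5 completed the upper part. Tmem45b at 31.2 ± 14.9 and the potassium channel subunit Kcne1 at 3.96 ± 0.451 lay below the off-tissue level.

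Of the 8 intercalated cell genes, 6 lay above the off-tissue level (75%) and 2 in the brightest 25% (25%), close to the shares of all genes. Car2, the cytosolic carbonic anhydrase that other tubule cells also hold, gave 695, 640.2, 671, 660.4 and 586, at percentile 88. Rhcg, an ammonia channel, gave 468, 484, 429, 557 and 491. The proton pump subunit Atp6v1c2 stood at 149.7 ± 30.7, the anion exchanger Slc4a1, which red cells share, at 132 ± 11 and the receptor Kit at 108 ± 8.2. Slc26a4, pendrin, the chloride-bicarbonate exchanger of the base-secreting type, gave 53.3, 60, 37.9, 73.1 and 50.9, on either side of the off-tissue level. Atp6v1g3 at 47.4 ± 2.42 and Aqp6 at 39.7 ± 7.04 lay below it.

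**Figure D2:**
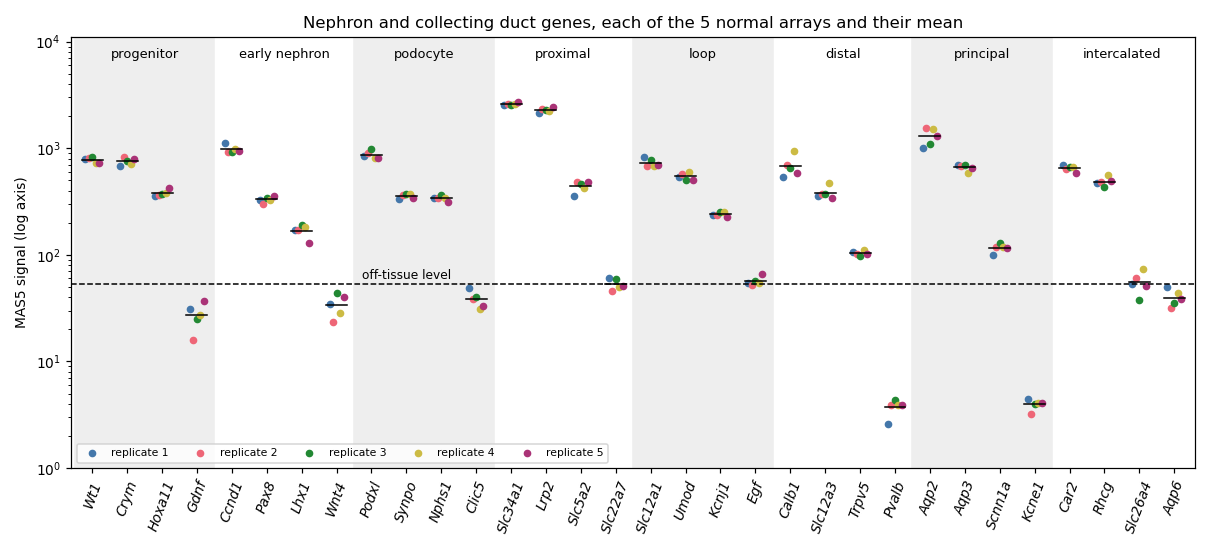
MAS5 signal on a log axis for 32 genes of the nephron and collecting duct, grouped by segment, with 1 point per normal array coloured by replicate and a black line at the mean of the 5. The dashed line is the off-tissue level of 53.6; the 5 points of a bright gene such as Slc34a1 nearly coincide, and Gdnf, Wnt4, Clic5, Pvalb and Kcne1 have means below the line.

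The renin-angiotensin-aldosterone list, whose enzymes and receptors set blood pressure and sodium balance and are needed for kidney development, had 6 of 10 members above the off-tissue level (60%) and 2 in the brightest 25% (20%). Enpep, the aminopeptidase that breaks down angiotensin II and sits on proximal tubule cells and podocytes, gave 1036, 1056, 1025, 926 and 1030.2, at percentile 94.2. The receptor genes followed. Agtr1a, which mediates constriction and sodium retention, gave 289.5, 273, 285, 301 and 273, and Agtr2, the receptor abundant in fetal mesenchyme, gave 302, 233, 270, 269.6 and 282, with Agtr1b at 77.8 ± 4.18. The 5 values of Agtr1a spanned a 1.1-fold range. Mas1, a receptor of angiotensin fragments, at 44.5 ± 10.1, Ace, the converting enzyme, at 40.7 ± 6.73, Agt, the precursor, at 19.6 ± 12.8 and the aminopeptidase Lnpep at 15.1 ± 8.48 lay below the off-tissue level.

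Stromal genes, which encode the matrix and the signals of the interstitium, were bright throughout. All 38 members with a probe set lay above the off-tissue level (100%), 27 in the brightest 25% (71.1%) and 20 in the brightest 10%. The fibrillar collagens led, with Col3a1 at 2569.7, 2738, 2483, 3186 and 2679 on the 5 arrays, percentile 99.3, and Col1a2 at 2457 ± 188. Fibronectin (Fn1) stood at 2521 ± 113, and Cdkn1c, given above among podocyte genes, is counted here too. At the lower end, Ecm1 stood at 159.6 ± 10.5, Wnt5a, a signal of the mesenchyme, at 96.4 ± 16.9 and Penk, the enkephalin precursor, at 93.1 ± 16. Of the markers chosen after their values were seen, Aldh1a2, which makes the retinoic acid that nephron formation needs, gave 1734, 1855, 1841, 1778 and 1728, and the proteoglycan decorin (Dcn) gave 1791, 1869, 1746, 1815 and 1796. Both varied little. Pdgfra, a receptor of stromal cells, stood at 919.5 ± 80.1. Foxd1, the factor that defines stromal progenitors, was not analysed here.

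In the list of smooth muscle, mesangium and renin cells, 22 of 24 members lay above the off-tissue level (91.7%) and 9 in the brightest 25% (37.5%). The brightest are contractile genes that other cells express as well, tropomyosin 1 (Tpm1) at 1542 ± 73.8, myosin light chain kinase (Mylk) at 1298 ± 109, caldesmon (Cald1) at 1026 ± 26.4 and Csrp1 at 991 ± 57.5. The median SD on the log2(signal + 16) scale over the 18 members with a mean signal at or above the 40th percentile (104.2) was 0.107, against 0.106 over all such probe sets. Replicate 3 gave the highest value for 11 of all 24 members (45.8%) and replicate 5 the lowest for 11. Of all probe sets at or above the 40th percentile, replicate 3 was highest for 19% and replicate 5 lowest for 21.9%. The 24 members include dim genes, which this second set leaves out. Smooth muscle myosin, Myh11, gave 255, 406, 313, 187 and 156, and enteric smooth muscle actin, Actg2, gave 198, 231, 256, 116 and 81.8. Calponin (Cnn1) gave 57.4, 85.3, 87.3, 50.1 and 26.7, at percentile 29.8. For Myh11, Actg2 and Cnn1 replicates 4 and 5 held the 2 lowest values and replicate 5 the lowest. Acta2, vascular smooth muscle actin, chosen after its values were seen, gave 604, 812, 919, 775 and 784 and did not follow that order. The lowest members were Cnn1, Lmod1 at 32.9 ± 8.66 and Akr1b7, an aldo-keto reductase of renin cells and adrenal cortex, with 116, 5.3, 5.3, 8.7 and 3.4. Akr1b7 was high on replicate 1 alone, the array that was also high for adrenal genes.

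Endothelial genes had 23 of 27 members above the off-tissue level (85.2%) and 9 in the brightest 25% (33.3%). Emcn, endomucin, a sialomucin of capillaries and veins, gave 784, 814, 769, 996 and 836, at percentile 92. Kdr, the main receptor for the growth factor that podocytes release, gave 744, 825, 763, 788 and 826, at percentile 91.1. Ramp2, a receptor partner, stood at 777 ± 41.8 and Egfl7 at 668 ± 46.7. Pecam1, the junction protein by which endothelium is usually recognised, gave 206 ± 38.5 and was chosen after its values were seen. At the lower end lay Vwf, the clotting factor of mature endothelium, with 41.6, 33.7, 42.9, 43.2 and 28.8, Sox17, an arterial factor, at 27.3 ± 8.72 and Flt4, the lymphatic receptor, at 8.98 ± 2.22. These 3 were below the off-tissue level on the mean of the arrays. The list mean on the log2 scale differed between arrays by no more than 0.03, the smallest difference of the lists fixed at the outset.

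Of 25 insulin-like growth factor and imprinted growth genes, 23 lay above the off-tissue level (92%). In the brightest 25% were 13 (52%) and in the brightest 10% were 11. Some members promote growth, and others, such as the cell cycle inhibitor Cdkn1c, restrain it. Gnas led, followed by Igfbp7, a secreted binding protein of vessels and stroma, with 3129.5, 3150.4, 3235, 3279 and 3746. Replicate 5 was apart from the others for Igfbp7. Cdkn1c came next, and the maternally expressed non-coding RNA H19 gave 1883, 2056, 1906, 2017 and 1939, at percentile 98.4. Igf2, the fetal growth factor, chosen after its values were seen, gave 1293, 1625, 1224, 1248 and 1581, at percentile 96.7, while Igf1, which takes over after birth, gave 209 ± 30.8. The lowest members were the receptor gene Igf1r at 68.7 ± 9.69, the insulin receptor substrate Irs1 at 43.2 ± 5.93 and the imprinted retrotransposon gene Peg10 at 17.2 ± 6.25.

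Genes of the cell cycle and DNA replication all lay above the off-tissue level, 27 of 27 (100%), with 17 in the brightest 25% (63.0%). Pcna, the sliding clamp of DNA polymerase, gave 1746, 1632, 1691, 1792 and 1712, at percentile 97.8. Cks2, a cyclin-dependent kinase subunit, gave 945, 1076, 997, 978 and 1073, and Ccnb1, the mitotic cyclin, gave 821, 766, 782, 784 and 887. Top2a, the topoisomerase that untangles chromosomes, gave 812, 750.3, 775, 877 and 784. These 4 genes varied by little between arrays, with SDs on the log2 scale of 0.0503, 0.082, 0.0826 and 0.0844. At the lower end were the mitotic kinase Aurka at 181 ± 16.7, cyclin E1 (Ccne1) at 154 ± 30.1 and thymidylate synthase (Tyms) at 130 ± 9.35.

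The promoters of cell cycle genes were searched in the same way, since the list was high as a whole. The CCAAT box, bound by the factor NF-Y, occurred as CCAAT on either strand in 17 of 23 windows (73.9%), against 37.6% of all 8610 windows. It was not limited to this list, with 7 of 10 erythroid windows (70%), 19 of 32 proteasome windows (59.4%) and 20 of 43 off-tissue windows (46.5%). In the ribosomal protein list, which was also high as a whole, it occurred in 6 of 35 windows (17.1%). The stretches of Pcna (chr3:139955964-139956008, minus strand) and Ccnb1 (chr2:33655251-33655327, minus strand) are shown, each from 20 bases before the first match to 20 after the last with the matches in capitals.
Pcna: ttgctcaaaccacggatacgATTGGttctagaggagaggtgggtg
Ccnb1: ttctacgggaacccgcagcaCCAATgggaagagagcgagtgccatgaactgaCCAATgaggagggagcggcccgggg
The match in Pcna begins 168 bases before the start and those in Ccnb1 begin 82 and 50 before it. The TATA box, searched as TATAAA, occurred in 0 of the 23 cell cycle windows, in 9 of 44 proximal tubule windows (20.5%), in 20 of 43 off-tissue windows (46.5%) and in 8.70% of all. The GC box, searched as GGGCGG, occurred in 18 of 23 cell cycle windows (78.3%), 12 of 44 proximal tubule windows (27.3%), 4 of 43 off-tissue windows (9.30%) and 59.6% of all. In all, 13 motifs were searched on both strands. The others were the GATA site, searched as GATAAG, the E box, as CACGTG, a site like that of E2F, as TTTGGC, the ETS site, as CCGGAAGT, the HNF4 site, as CAAAGTCCA, a full and a relaxed full HNF1 site, both of which contain the core site, and a strict and a relaxed CArG box. The HNF4 site occurred in 2 of 44 proximal tubule windows (4.55%) and 2 of 43 off-tissue windows (4.65%), against 0.372% of all. The full HNF1 site occurred in 0 of the 8610 windows. Its relaxed form occurred in 0 of 44 proximal tubule windows and in 7 of all 8610. The site like that of E2F occurred in 3 of 23 cell cycle windows (13.0%), against 11.6% of all. The strict CArG box occurred in 0 of 18 smooth muscle windows and 3 of 14 immediate early windows (21.4%), against 1.42% of all. In proximal tubule and cell cycle windows, the GATA site occurred in 9.09% and 4.35%, against 5.41% of all. The E box occurred in 9.09% and 4.35% of them, against 8.94%, and the ETS site in 2.27% and 0%, against 7.085%.

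Immediate early genes, which respond within minutes to growth signals and to tissue handling, had 17 of 21 members above the off-tissue level (81.0%) and 3 in the brightest 25% (14.3%). Ccn2, a matricellular protein gene, gave 672, 773, 911, 718 and 748, and Ier3 gave 459, 704, 402, 515 and 365. Jun stood at 369 ± 54.9 and the phosphatase Dusp1 at 366 ± 77.4. Of the 21, 14 lay at or above the 40th percentile. Replicate 3 gave the highest value for 11 of the 21 (52.4%), against 19% of all probe sets at or above that percentile. Fos, the best known of them, gave 33.3, 35.4, 26.9, 45.4 and 7.0, below the off-tissue level on the mean of the arrays, with Atf3 at 28.1 ± 16.9 and Fosb at 9.58 ± 4.95.

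Families of developmental signals were listed after the values had been seen. Of 8 Hox genes 6 lay above the off-tissue level (75%). Hoxd8 gave 1775, 1920.1, 1668, 1889 and 1890.4, at percentile 98.1, and Hoxa5 stood at 733 ± 28.2, while Hoxd3 at 23.3 ± 2.83 and Hoxc8 at 10.5 ± 2.76 lay below it. Hoxc4 gave 27.4, 78.8, 29.3, 14.2 and 162, a 5.88-fold range with 16 added to each signal, and the other 7 Hox genes were steadier. Among Wnt ligands and Frizzled receptors, 7 of 9 lay above the level (77.8%), with the receptor genes Fzd1 at 919.8 ± 43.9 and Fzd4 at 512 ± 46.3 in the brightest 25%. No ligand gene was in the brightest 25%, with Wnt2b at 138 ± 19.3, Wnt5b at 114 ± 12.2 and Wnt6 at 37.1 ± 6.31.

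Most fibroblast growth factor genes lay below the off-tissue level. Of 26 genes 6 lay above the off-tissue level (23.1%), among them the 4 receptors, Fgfr2 at 814 ± 50.3, Fgfr1 at 692 ± 34.8, Fgfr3 at 139.8 ± 8.09 and Fgfr4 at 116 ± 8.84. The other 2 were Fgf13 at 253 ± 29.7 and Fgf9. Bone morphogenetic proteins and receptors had 7 of 9 above the level (77.8%), with Bmp7 brightest, Bmp1, a procollagen protease, at 410.3 ± 38.5 and Bmp4, a signal of the mesenchyme around the bud, at 314 ± 16.8. Of Notch receptors and ligands 5 of 8 lay above it (62.5%), led by Notch1 at 391 ± 29.3, with Dll3 lowest at 15.7 ± 12.2.

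Ubiquitous machinery filled the top of the ranks. Of 42 ribosomal protein genes 40 lay above the off-tissue level (95.2%) and 37 in the brightest 25% (88.1%). The exceptions at the bottom were Rpl3l, a muscle paralogue, at 4.18 ± 1.68, Rpl30 at 26.9 ± 2.69 and Rps27l at 140.5 ± 12.4. Rpl30 encodes a subunit of every ribosome, and its single probe set gave 26, 22.6, 29.1, 29 and 27.6, below the off-tissue level on every array. Of 84 oxidative phosphorylation genes 81 lay above the level (96.4%) and 68 in the brightest 25% (81.0%), with Cox8a at 3569.8 ± 338, Atp5mc3 at 3517 ± 157 and Atp5f1a at 3485 ± 193 behind Atp5f1b. The lowest 3 were the muscle and fat isoforms Cox7a1 at 47.8 ± 20.6, Cox6a2 at 5.56 ± 0.856 and Cox8b at 2.24 ± 0.68. Of 34 proteasome genes 32 lay above it (94.1%) and 27 in the brightest 25% (79.4%), from Psmb1 at 1749.9 ± 89.1, Psmb4 at 1723 ± 104, Psmb5 at 1648 ± 174 and Psma6 at 1480.5 ± 52.8 down to the immune subunits Psmb10 at 105 ± 12.8, Psmb8 at 48.7 ± 6.0 and Psmb9 at 35 ± 5.63.

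Red cell genes were split, with Hbb bright and the other globin genes of the list, Hbe1, Hbe2, Hbz and Hbg1, below the off-tissue level. Of 14 members 5 lay above the off-tissue level (35.7%) and 3 in the brightest 25% (21.4%). Adult beta globin, Hbb, gave 5052, 4524, 5209.7, 5805 and 5682, and Alas2, the first enzyme of haem synthesis in red cells, gave 419, 400, 395, 560.2 and 400.5. Tfrc, the transferrin receptor that all dividing cells carry, stood at 1088 ± 85.6. The lowest members were a further globin gene, Hbg1, at 3.74 ± 1.2, and the red cell membrane genes Sptb and Rhag at 4.84 ± 2.88 and 5.92 ± 2.39. Leukocyte genes had 17 of 23 above the level (73.9%) but 1 in the brightest 25% (4.35%), Lyz2, the lysozyme of macrophages, at 574 ± 53.1. Fcer1g followed at 296 ± 38.8, S100a9 at 197 ± 24.1 and C1qc at 170.3 ± 18.7, and the lowest were Cd37 at 20.2 ± 7.43, the T cell gene Cd3e at 13 ± 8.24 and Itgam at 10.7 ± 10.7.

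Nerve genes had 5 of 17 members above the level (29.4%), led by the myelin protein gene Pmp22 at 562 ± 19.2, which many other cells express, Nefm at 301 ± 34.8, Uchl1 at 296 ± 11.5 and Rtn1 at 150.4 ± 23.2. The lowest were Dbh at 11.1 ± 8.05, Sox10 at 5.7 ± 1.54 and Nefh at 5.54 ± 2.18. Adipose genes had 1 of 6 above it (16.7%), Fabp4 at 77.7 ± 21.7, with Cidea at 44.6 ± 8.39, Cfd at 41.7 ± 7.56 and Plin1 at 35.3 ± 7.54 below, and Ucp1 at 28.5 ± 7.99 and Lep at 3.22 ± 0.847 lowest. Skeletal muscle genes had 3 of 20 above it (15%). The brightest, Myh1, gave 1022, 1182, 905, 1044 and 959, at percentile 94.2, whereas other muscle genes were near the floor, with Myh4 at 2.8 ± 2.02, Myh3 at 4.54 ± 0.619 and Tnnt1 at 5.86 ± 4.62. Tnni1 stood at 134 ± 21.9, Tnni2 at 55.1 ± 10.9 and Casq1 at 51.9 ± 7.35. The 5 probe sets of Myh1 ranged from 79.6 to 1022 in mean signal, and what the bright ones bind was not tested. Of the 54 off-tissue genes themselves, 6 lay above the level they set (11.1%), Zp2 at 262 ± 53.9, Lhb at 86.3 ± 17.2, Omp at 79.3 ± 18.3, Ins1 at 76.7 ± 18, Cela1 at 67.8 ± 8.87 and Pnlip at 55 ± 12.5, and the lowest were Gcg at 1.18 ± 0.228, Tnp2 at 0.74 ± 0.279 and Crygb at 0.44 ± 0.114.

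Liver genes moved with 1 array. Afp, the fetal plasma protein, gave 848, 827, 886, 1004 and 864, at percentile 92.7, and was the 1 member of 22 in the brightest 25%. Alb, albumin, gave 42.9, 66.9, 42.9, 842 and 49.3. Replicate 4 was far above the others for Alb, and the remaining 4 arrays lay between 42.9 and 66.9. Serpina1 gave 70.3, 81.4, 60.5, 202 and 59.4, haptoglobin (Hp) 108, 101, 100.2, 198 and 91.6 and, chosen after their values were seen, transthyretin (Ttr) 67.2, 70.6, 59.5, 181 and 73.7 and Itih3 3.5, 3.8, 5.5, 100.4 and 6.5. In each case replicate 4 was highest, as it was for 19 of the 22 members (86.4%) and for 22.6% of all probe sets at or above the 40th percentile. Of the 22 members, 3 lay at or above that percentile. On the log2 scale the list mean was 6.89 on replicate 4 and 5.83 to 5.91 on the others. Of the 22 members 13 lay above the off-tissue level with all 5 arrays and 10 without replicate 4, and the percentile of Alb went from 57.7 to 26.6. The lowest members were Apoa2 at 10.3 ± 8.51, Apoa1 at 9.98 ± 15.6 and Tat at 2.46 ± 0.876.

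Adrenal genes moved with another array. Cyp11a1, the enzyme that starts steroid synthesis from cholesterol, gave 295, 60.9, 55.6, 59.5 and 78.2. Hsd3b1 gave 218, 2.6, 6.3, 2.2 and 2.9, the 21-hydroxylase gene Cyp21a1 195, 22.4, 25.6, 7.9 and 21.4 and the 11-beta-hydroxylase gene Cyp11b1 156, 5.1, 17.7, 15.9 and 16.2. Replicate 1 was far above the other arrays for each of the 4, where the other arrays of the last 3 stayed below the off-tissue level. The list mean on the log2 scale was 6.11 on replicate 1 and 4.78 to 5.00 on the others, and 2 of 10 members lay above the off-tissue level with all arrays and 1 without replicate 1. The chromaffin and steroidogenic factor genes Chga at 1.04 ± 0.114 and Nr5a1 at 1.16 ± 0.152, and Cyp17a1 at 7.42 ± 3.22, were at the floor on all 5 arrays. The part of neighbouring tissue in these values was not tested.

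**Figure D3:**
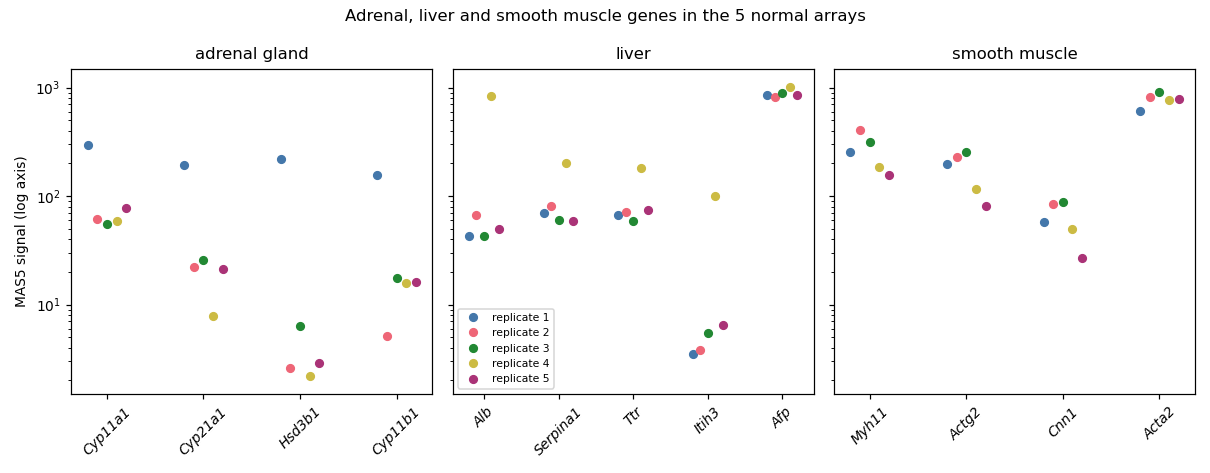
MAS5 signal on a log axis of 4 adrenal genes, 5 liver genes and 4 smooth muscle genes on the 5 normal arrays, 1 point per array coloured by replicate. Replicate 1 lies above the others for the adrenal genes and replicate 4 for the liver genes except Afp, where it leads by little, and replicates 4 and 5 are lowest for Myh11, Actg2 and Cnn1.

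The spread between arrays was small for most genes. Over the 7670 probe sets with a mean signal at or above the 40th percentile (104.2), the median SD on the log2(signal + 16) scale was 0.106, the median coefficient of variation of the signal was 7.76% and the median ratio of the highest to the lowest array, on signals with 16 added, was 1.20. The median SD fell with the level, from 0.217 in the dimmest 20% of all 12783 probe sets through 0.176, 0.130 and 0.108 to 0.0847 in the brightest 20%. An SD from 5 arrays is itself imprecise, and its 95% interval for normal values runs from 0.599 to 2.87 times the estimate. Among the 7670, 11 probe sets (0.143%) had an SD over 0.5, and 392 (5.11%) had 1 array apart from the other 4 by a Dixon gap ratio above 0.71, a share that chance gives in about 1 group in 20.

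The 15 genes with the largest spread past that level included liver, adrenal and smooth muscle genes. Alb was first with an SD of 1.67, followed by Nos2, the inducible nitric oxide synthase, at 1.02, Cyp11a1 at 0.90 and Actg2 at 0.63, and Myh11 had 0.52. Nos2 gave 160.3, 15.9, 144, 135 and 85.9, with replicate 2 far below the rest. Lats1, a kinase of the Hippo pathway, gave 262, 664, 749, 715 and 672, with replicate 1 below the rest, and Sbds, a ribosome maturation factor, gave 807, 845, 886, 754 and 399, with replicate 5 below the rest. Marveld1 gave 156, 261, 208, 232 and 526, where replicate 5 was highest. Ccn1, an immediate early matrix protein, gave 191, 146, 346, 159 and 129.9 and was highest on replicate 3. The imprinted non-coding RNA Meg3 gave 545, 348, 325, 463 and 228, with no array apart. Phaf1, Exd2, Sprr1a, Cds1 and Pspn completed the 15, with SDs of 0.53, 0.50, 0.50, 0.45 and 0.45.

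At the other end, 10 genes were nearly constant. Zfyve27, an endoplasmic reticulum protein gene, gave 132, 132, 134, 134 and 134, an SD of 0.0108. Atp5mf, an ATP synthase subunit, gave 1706, 1696, 1694, 1669 and 1693, and Ggt1, the gamma-glutamyl transferase of the proximal tubule brush border, gave 1739, 1746, 1716, 1757 and 1744. The last had the smallest SD of the kidney segment genes past the filter. The others were Rnf157, Cct6a, Mapk1ip1, Mrps22, Osbp, Selenof and Timm8b, with SDs between 0.0117 and 0.0164. Among 7670 probe sets some will have small SDs from 5 values by chance.

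**Figure D4:**
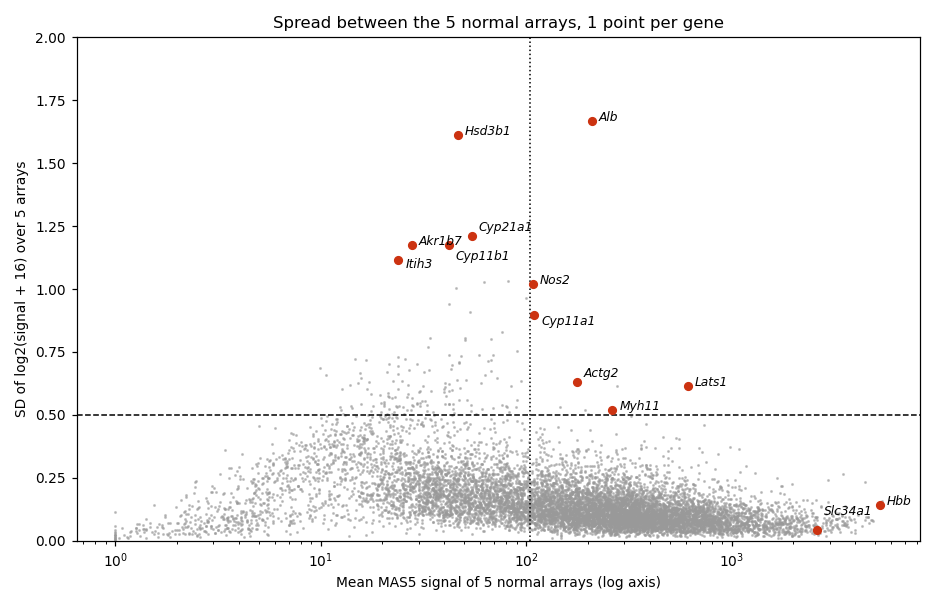
SD of log2(signal + 16) over the 5 normal arrays against mean MAS5 signal (log axis), with 1 grey point per gene means below 1 drawn at 1, and 13 of the genes named in the text in red. The dotted line is the filter at a signal of 104.2 and the dashed line an SD of 0.5; most genes lie well below the dashed line, and the labelled liver, adrenal and smooth muscle genes lie above it.

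Means of lists were compared between arrays. Of the 28 lists drawn up at the outset, the mean log2 signal differed between the highest and lowest array by 1.33 for the adrenal list, 1.06 for the liver list and 0.26 for smooth muscle, and by less than that for every other list. For the proximal tubule the difference was 0.12, for stroma 0.05, for podocytes 0.09 and for nephron progenitors 0.12. The ribosomal list was highest on replicate 4, where 23 of its 42 members (54.8%) and 22.6% of all probe sets past the filter had their highest value, with a difference of 0.10.

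**Figure D5:**
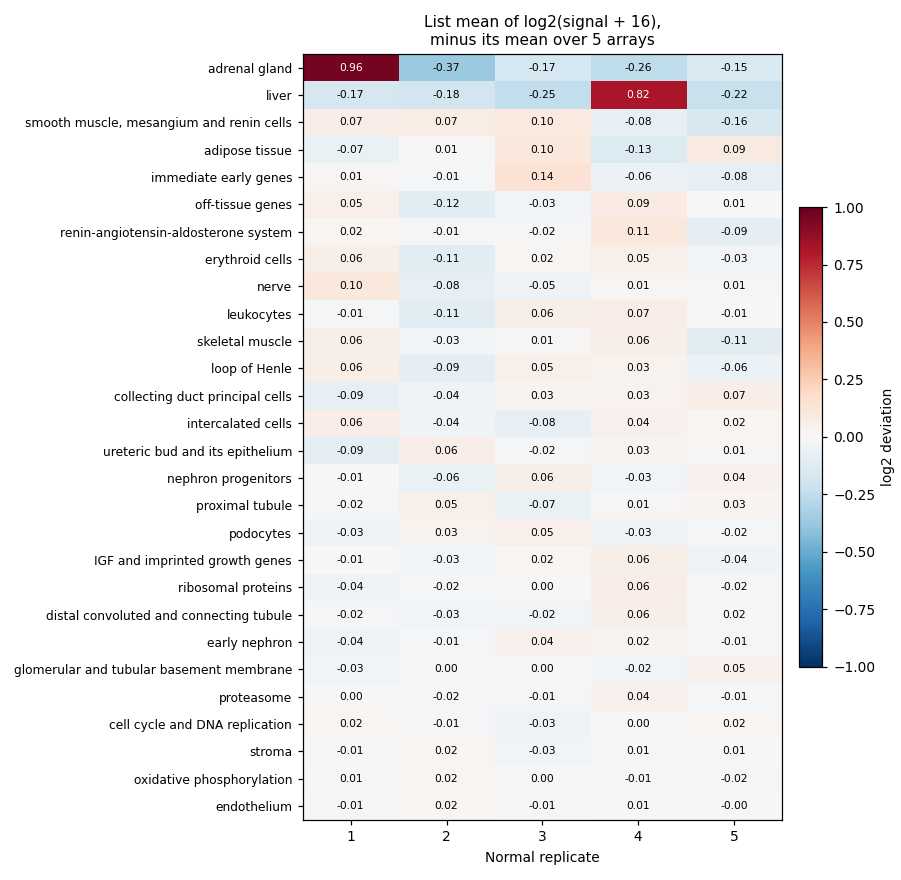
Deviation of each list's mean log2(signal + 16) on an array from its mean over the 5 normal arrays, in log2 units, for 28 lists (rows, ordered by spread) and replicates 1 to 5 (columns). The adrenal list on replicate 1 and the liver list on replicate 4 are the darkest cells, and the rows of stroma, oxidative phosphorylation and endothelium stay within 0.05 of 0.

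Probe sets of 1 gene often disagreed in rank. Of 1868 genes with several probe sets, the median gap between the highest and lowest was 23.3 percentile points, and 313 (16.8%) had a gap over 50 points. The widest gaps were those of Gnas, from percentile 99.8 to 2.61, Igf2, from 96.7 to 1.54, Nudt4, Marcks, Sptbn1, Pgk1, Lamp1, Tkt, Got2 and Tpm1, all at 90.8 points or more. For Slc34a1 the second probe set gave 150, against 2600.3 for the one used above, for Wt1 it gave 240.2 against 773.7 and for Podxl 121.1 and 50.9 against 868.6. A gene placed high by its brightest probe set can therefore have others near the middle or the floor.

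Genes that tell the sexes apart were all low. Xist, the RNA that coats the inactive X chromosome in females, gave 1.3, 1.0, 0.90, 2.0 and 0.80, at percentile 0.368. The Y-linked testis determining gene Sry gave 19.5, 14.5, 21.4, 24.2 and 9.8, and Tspy1, another Y-linked testis gene, gave 24, 3.1, 2.3, 12.2 and 9.3. All lay below the off-tissue level on every array, so these probe sets may not report sex, and the labels give none.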

How the data were processed

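Total RNA of rat fetal kidney was measured on 1-colour Affymetrix arrays, 1 per sample. The authors deposited an intensity on a linear scale for each probe set. MAS5 is named in the submitters' processing notes, while its version and settings are not given in the sources used here, and no detection calls were used. The trimmed mean without 2% at each end was 250 on every array, so the values were used as deposited. The 57 Affymetrix control probe sets, 312 with several symbols and 2771 unnamed here were left out. Symbols come from the platform annotation, updated by Entrez identifier through the GRCr8 gene table, which matched 12748 probe sets. The array's build is not given, so coordinates are only those of RefSeq promoter windows.

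Samples were grouped by title, and 5 of 10 arrays were used, so no groups were compared and no test was run. Signals, SDs and percentiles were computed with Python 3.11.15, pandas 2.3.3, numpy 2.4.6 and scipy 1.17.1, with figures by matplotlib 3.10.9. The number of arrays limits the precision. No pair of arrays held identical values. The SD limit of 0.5 and the gap ratio were tested on simulated arrays made from the means of the 7670 probe sets past the filter. The filter itself was not tested. Of probe sets given an SD of 0.8, 85.5% passed 0.5. Of those with 1 array shifted by 1 on the log2 scale, 86% were picked out by the gap ratio, against 5.08% of the rest. Apart from those given 0.8, all had 1 common SD, whereas the SD of the data fell with the level.

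Members and lists were chosen with earlier results of these data known, and 6 of the 34 lists after these values had been seen. Of 865 listed symbols, 150 had no probe set of their own. Genes were named by a rule: the 25 brightest; in each list the 4 highest and 3 lowest, and all members of the podocyte, progenitor, early nephron, ureteric, loop, distal, principal cell, intercalated and renin-angiotensin lists; the 15 largest and 10 smallest SDs past the filter; the 10 widest gaps between probe sets; and Xist and Y-linked genes. Others are said to have been chosen after their values were seen, and so were those shown for a promoter match. The alternatives were the median of arrays, other probe sets of a gene, quantile or median scaling, other levels, pseudocounts and filters, the median absolute deviation and leaving out each array, and, added later, replicates 1 and 4 together.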

Additional observations from a re-analysis of the deposited data

Results flagged for a closer look

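Of the 351.0 genes named in the text, 27.0 (7.69%) had 1 array apart from the other 4 by Dixon's gap ratio, against 6.38% of all 12783 probe sets and 10.8% of the dimmest 20%, and some of the 351 were named for their large spread. Of 34 lists 4 did. Chance flags about 1 group in 20. No cause was tested for any of them.

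Replicate 1 lay above the other arrays for the adrenal list, with a mean log2 signal of 6.11, and for Akr1b7 (116), Cyp11a1 (295), Cyp11b1 (156), Cyp21a1 (195) and Hsd3b1 (218). It lay below them for Dll1 (6.4), Lats1 (262), Pvalb (2.6) and Zp2 (166).

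Replicate 4 lay above the others for the liver list, with a mean log2 signal of 6.89, and for Alas2 (560.2), Alb (842), Apoa1 (37.6), Hp (198), Itih3 (100.4), Serpina1 (202), Slc12a3 (472) and Ttr (181). It lay below them for Cox7a1 (12.9), Enpep (926) and Tpm1 (1415).

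Replicate 5 lay above the others for the lists of Wnt ligands and Frizzled receptors, with a mean log2 signal of 7.48, and of reference genes of quantitative PCR, with 10.02, and for Cidea (59.1), Col4a1 (2938), Igfbp7 (3746), Itgam (29.7) and Lep (4.7). It lay below them for Sbds (399). Replicate 3 lay above the others for Fgf20 (17).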

How the results depend on the processing

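Counts of list members depended most on the level to pass. Against the 60th percentile of all probe sets in place of the off-tissue level, 5 nephron progenitor genes passed, 6 early nephron genes, 8 of the loop of Henle, 7 each of the distal tubule and principal cells, 2 intercalated cell genes, 12 of smooth muscle, 14 of endothelium, 2 of leukocytes, 3 each of erythroid cells and nerve, 1 each of liver and skeletal muscle, 0 each of adrenal gland and adipose tissue, 15 of insulin-like growth factors and imprinted genes, 7 immediate early genes, 1 off-tissue gene, 2 Wnt and Frizzled genes, 3 fibroblast growth factor genes, 4 bone morphogenetic protein genes and 2 Notch genes. Against the 75th percentile of the off-tissue genes, 8 nerve, 4 adrenal, 8 skeletal muscle, 3 adipose and 14 off-tissue genes passed. With the median of the arrays 1 adrenal gene passed, and without replicates 1 and 4, chosen after seeing the data, 1 did. Leaving out each array in turn gave 1 to 3 adrenal genes, 1 being the value without replicate 1, and 2 to 5 skeletal muscle genes, 5 without replicate 3.

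With the dimmest probe set of each gene, the brightest 25% held 0 nerve, skeletal muscle, fibroblast growth factor and Notch genes and 1 each of the renin-angiotensin, Wnt and bone morphogenetic protein lists. After averaging the probe sets of each gene it held 1 each of the Wnt, fibroblast growth factor and bone morphogenetic protein lists and 0 Notch genes. Ranked among all probe sets it held 5 immediate early genes. In the other 411 settings of the first kind of count and 362 of the second, the count stayed within 1.5 times. Median percentiles of lists moved by more than their SD between arrays in 61 of 374 settings and percentiles of named genes in 309 of 3861.

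The median SD was 0.131 with no filter, 0.0958 with the filter at the 60th percentile, 0.0861 as a median absolute deviation and 0.0947 without replicates 1 and 4. The number of probe sets with an SD over 0.5 was 7 with a pseudocount of 32, 208 with no filter, 4 with the filter at the 60th percentile, 20 by the median absolute deviation and 24 without replicates 1 and 4. The median correlation between arrays was 0.978 with a pseudocount of 1, 0.983 past the filter and 0.989 without replicates 1 and 4. No paired analysis was possible because 1 group was described. Signals below the off-tissue level of 53.6 have no detection call here, so the order among them says little.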

Other observations

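Genes commonly used as references in quantitative PCR were listed after the values had been seen, and 10 of them had a probe set. All 10 lay above the off-tissue level and 9 in the brightest 25%. The ribosomal stalk protein gene Rplp0 gave 3139, 3165, 3195, 3518 and 3298, at percentile 99.6, the adaptor protein gene Ywhaz gave 1843, 1996, 1867, 2235 and 2341, the glycolytic enzyme gene Pgk1 gave 2071, 1911, 2139, 1829.5 and 1943 and Sdha, a subunit of the respiratory chain, gave 1794, 1795, 1738, 1649 and 1961. At the lower end, Polr2a, the large subunit of RNA polymerase II, gave 427, 440.3, 424, 366 and 545, the lysosomal enzyme gene Gusb gave 380.4, 396, 383, 349.7 and 427 and the TATA-binding protein gene Tbp gave 189.6, 197, 188, 232 and 218, at percentile 57.2. Their SDs on the log2(signal + 16) scale were 0.0668 for Rplp0, 0.15 for Ywhaz, 0.090 for Pgk1, 0.0902 for Sdha, 0.20 for Polr2a, 0.0995 for Gusb and 0.12 for Tbp, against a median of 0.106 over the 7670 probe sets past the filter. The SD falls with the level, and over the brightest 20% of all probe sets the median was 0.0847, below the SDs of Pgk1 and Sdha.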
